A study of Mus musculus with 6 samples.

Results

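The Zfp genes are mouse genes named as numbered zinc finger proteins. They were taken as all protein-coding genes whose symbol is Zfp followed by a digit and whose mean over 5 RNA sequencing libraries was at least 1 FPKM, a read number scaled to the length of the gene and to the total of the library. Zfp36, Zfp36l1 and Zfp36l2, which belong to another zinc finger class that binds RNA, were left out. Of 391 such genes listed, 189 (48.3%) reached the threshold. The other 202 did not: 31 were at 0 in every library and 171 had some value. Over all protein-coding genes, 8965 of 22046 (40.7%) reached the same level. The genes were thus chosen by their expression level in these same libraries, and levels are given below as a description with no test.

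The RNA came from macrophages that had been derived from bone marrow of C57BL/6 mice; macrophages are phagocytes, and here they were grown in culture. All samples had received LPS, a component of bacterial cell walls, at 100 ng/ml for 12 hours. The 3 samples labelled siNC carried a negative-control small interfering RNA and the 3 labelled siCXCR4 carried one against Cxcr4, a chemokine receptor; no sample without LPS was used here. The question put to the data was how the Zfp genes compared between siCXCR4 and siNC macrophages under LPS. The deposited columns of the siCXCR4 samples are headed mko, which the labels do not explain, so the label siCXCR4 is used throughout.

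Most Zfp proteins bind DNA through arrays of C2H2 zinc fingers, small folds in which a pair of cysteines and a pair of histidines hold a zinc ion, and the fingers of an array read successive short stretches of DNA. Many carry a KRAB domain, which recruits the corepressor Trim28 and through it the histone methyltransferase Setdb1 and heterochromatin proteins. KRAB zinc finger genes lie in clusters that arose by repeated duplication, and their best known targets are retroelements and imprinted regions. Other Zfp proteins carry a SCAN domain, which pairs proteins with one another, or act on RNA, ribosomes or chromatin without a KRAB domain.

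Finger repeats define the family and can be alike between neighbouring genes. So 1 finger repeat is shown for each of 6 genes that the results below turn on. They are 4 of the 5 expressed genes of a cluster on chromosome 4 and 2 genes with low p-values elsewhere. The finger repeats of the other genes of that cluster were not compared. Each is the first stretch of 78 bases in the coding sequence of GENCODE M21 (GRCm38) that runs from the codon of a finger's first cysteine through the linker to the next finger. The capitals mark the 15 linker bases. The stretches lie in the last exon of their gene, except that of Zfp692, in exon 11 of 12: chr4:146657944-146658021 for Zfp993, chr4:147178891-147178968 for Zfp991, chr4:146466547-146466624 for Zfp992, chr4:147755514-147755591 (minus strand) for Zfp984, chr17:21463854-21463931 for Zfp51 and chr11:58313983-58314060 for Zfp692.
Zfp993: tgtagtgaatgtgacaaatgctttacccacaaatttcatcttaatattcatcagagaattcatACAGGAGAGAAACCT
Zfp991: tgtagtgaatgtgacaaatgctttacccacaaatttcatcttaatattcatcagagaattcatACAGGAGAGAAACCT
Zfp992: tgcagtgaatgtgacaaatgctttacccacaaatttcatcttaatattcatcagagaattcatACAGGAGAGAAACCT
Zfp984: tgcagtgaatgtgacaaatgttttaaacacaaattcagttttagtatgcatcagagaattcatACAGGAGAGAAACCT
Zfp51: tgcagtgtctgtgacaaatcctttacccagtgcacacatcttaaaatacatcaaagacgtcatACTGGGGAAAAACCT
Zfp692: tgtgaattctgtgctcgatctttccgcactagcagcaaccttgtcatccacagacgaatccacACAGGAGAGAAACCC
The Zfp993 and Zfp991 stretches were identical. The Zfp992 stretch differed from them at 1 of 78 bases, that of Zfp984 at 10, that of Zfp51 at 19 and that of Zfp692 at 37. The linker letters were the same in the 4 genes shown from chromosome 4.

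The table labelled siNC replicate 3 held whole read counts equal, in all 19072 genes with reads, to the reads worked back from siNC replicate 2. The difference between the pair was below the sampling noise, and they were counted as 1 sample, which leaves 2 siNC and 3 siCXCR4 libraries of 18890751 to 21780840 reads in genes. Values are given in the order siNC replicates 1 and 2, then siCXCR4 replicates 1, 2 and 3. Cxcr4, the gene the siRNA targets, was at 41.3 and 42.1 FPKM in siNC and at 31.1, 36.2 and 32.7 in siCXCR4, a log2 fold change of -0.32 (SE 0.0704), with a limma adjusted p of 0.457 and an exact two-sided permutation p of 0.1, the smallest that 2 against 3 libraries allow. Its groups did not overlap, and its adjusted p ran from 0.0465 to 0.863 over the alternative analyses. All 7 macrophage markers were above 1 FPKM, with summed levels of 3891 to 4041 in siNC and 3774 to 4083 in siCXCR4. Of 7 neutrophil markers 4 reached a mean of 1 FPKM, and the sum of the list was higher in siNC (76.0 to 78.9) than in siCXCR4 (55.2 to 65.1), while Ly6g, a defining marker, was at 0 in 4 of the 5 libraries. The gap in the sum lay in S100a8 and S100a9, and the groups overlapped in the other 2, Camp (5.56 and 5.02 against 5.09, 5.10 and 4.27) and Ltf (2.65 and 2.59 against 2.89, 2.02 and 2.44). None of the markers listed for T and NK, B, dendritic, stromal, mast or erythroid cells reached a mean of 1 FPKM, and the B-cell marker Cd79b was at 1.01 in siNC replicate 1. In bulk RNA, fewer cells of a type and less RNA per cell cannot be told apart. Ribosomal protein genes had a median log2 fold change of -0.16. Their median log2 deviation from the mean of the 5 libraries was 0.145 and 0.042 in siNC and -0.067, 0.075 and -0.185 in siCXCR4. The groups thus overlapped, with siCXCR4 replicate 2 above siNC replicate 2. The part of cell makeup or library state in the Zfp values was not tested. The labels do not say whether separate animals or cultures gave the replicates, so p-values reflect only how these samples spread, and that spread may be technical.

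Zfp genes were expressed at low levels. Their median was 2.44 FPKM, against 7.49 for the other 8776 protein-coding genes above the threshold. Of the 189, 72 lay between 1 and 2 FPKM, 79 between 2 and 5, 27 between 5 and 10 and 11 at 10 or above. The share under 5 FPKM was 79.9%, against 37.6% of the other genes, and the 189 genes together made up 0.24% of the summed FPKM. In reads, they held 31 to 3483 per library with a median of 255, and 25 had a mean below 100. With 2 against 3 libraries the 95% interval of a Zfp gene's log2 fold change reached, in the median, 0.191 to either side, against 0.171 over all genes tested. It was taken on log2(FPKM + 1), a scale that understates changes of low genes.

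The highest levels belonged to genes in which no KRAB pattern was found. Zfp385a, which encodes a protein that binds p53 and RNA, had the highest mean, 25.9 FPKM. It was followed by Zfp710 (22.0), Zfp513 (21.2), Zfp207 (20.05), a kinetochore protein that binds Bub3, and Zfp800 (18.6). Next came Zfp263 (18.3), the ubiquitin ligase Zfp91 (15.2), Zfp281 (12.1), which binds G-rich promoters, Zfp384 (10.8) and Zfp706 (10.8). Zfp513 overlaps Snx17, which holds more reads (a mean of 2284 against 1072). With the strand setting not given, reads of Snx17 may be mixed into the level of Zfp513. The threshold passed just below Zfp182 (1.01), Zfp512b (1.02) and Zfp27 (1.02) and just above Zfp329 (0.982), Zfp707 (0.977) and Zfp874a (0.953). Of the 189 genes, 174 were at 1 FPKM or more in every library. Zfp182 was at 1.11 and 1.21 in siNC and at 0.841, 0.99 and 0.892 in siCXCR4, so it met the threshold through its siNC libraries. Zfp27, at 0.944 and 0.865 against 1.13, 1.06 and 1.11, met it through siCXCR4. In such genes the direction of the difference is tied to how they passed the threshold.

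No Zfp gene passed the test between siCXCR4 and siNC. With limma on log2(FPKM + 1), 0 of the 189 genes had an adjusted p under 0.05, and neither did any of the 9943 genes tested (0%). Below an unadjusted p of 0.05 stood 13 Zfp genes (6.88%, against 9.34% of all genes tested). Of these 10 (5.29%) were higher in siCXCR4 and 3 (1.59%) lower, against 5.8% and 3.54% of all genes. Whether the Zfp shares differ from the background was not tested. On the reads, edgeR called 17 of 12794 genes (0.133%) and DESeq2 33 (0.258%), among them 0 Zfp genes. By their unadjusted p, edgeR had 6 Zfp genes higher and 9 lower, where 9.73% of all genes in either direction passed, and DESeq2 had 4 and 5, where 5.52% passed. The limma counts of 10 and 3 became 6 and 2 without siNC replicate 1, 3 and 1 without siNC replicate 2, 6 and 3 without siCXCR4 replicate 1, 12 and 5 without siCXCR4 replicate 2, and 6 and 4 without siCXCR4 replicate 3. A p that misses the threshold does not show that a gene is equal in both groups. For 180 of the 189 genes the 95% interval lay within 0.5 of 0 on the log2(FPKM + 1) scale. That scale understates changes of low genes, so the intervals do not bound the fold change of FPKM itself.

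As a group the Zfp genes were centred on 0. The log2 fold change was above 0 for 101 and below 0 for 88, with a median of 0.0052, a middle range of -0.05 to 0.07 and extremes of -0.48 and 0.42. Over all genes tested the median was 0.015 and the middle range -0.06 to 0.08. The sign of the Zfp median turned with the method, since it was -0.011 by edgeR and -0.0078 by DESeq2, each within 0.02 of 0. In 30 Zfp genes all siCXCR4 values lay above all siNC values and in 21 all lay below. That is 15.9% and 11.1% of the genes, against 17.9% and 9.92% of all genes tested. Zfp27 is among the 30 and Zfp182 among the 21, and each met the threshold through the group where it is high. The summed level was 722 and 729 FPKM in siNC and 735, 723 and 747 in siCXCR4, so siCXCR4 replicate 2 lay between the siNC libraries. Each library held the highest value in 30 to 51 of the genes and the lowest in 25 to 43, and siCXCR4 replicate 3 was both the one most often highest and the one least often lowest.

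**Figure D1:**
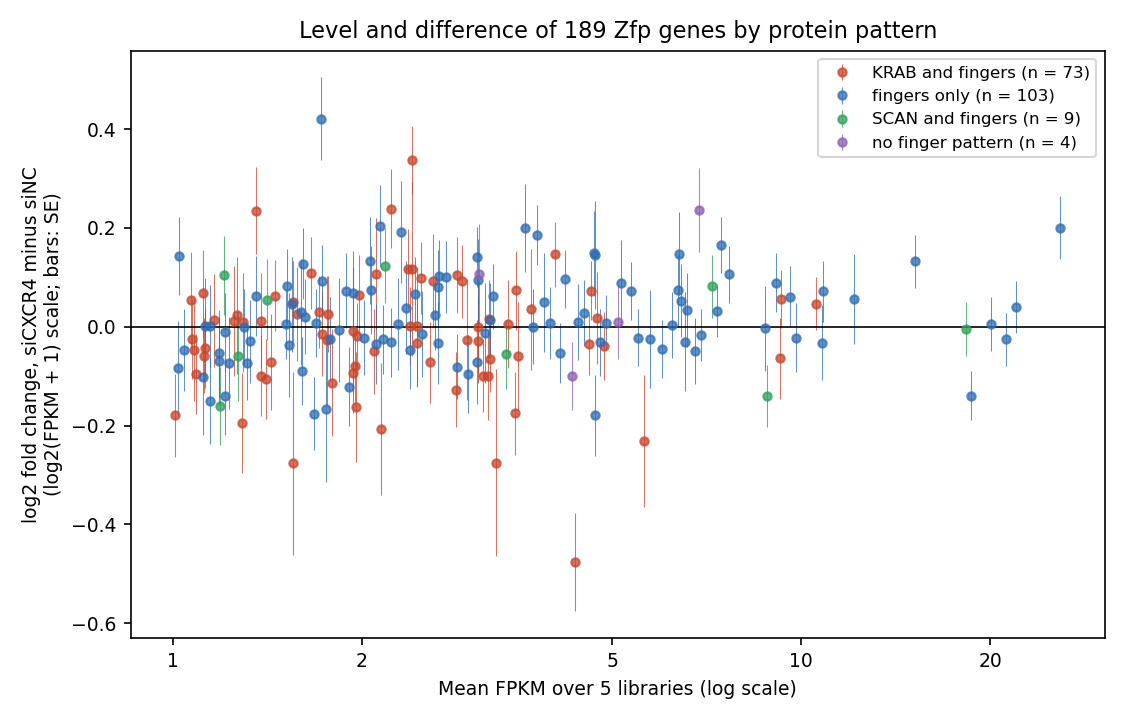
Each point is 1 of the 189 Zfp genes, with the mean FPKM over 5 libraries on a log axis against the log2 fold change, siCXCR4 minus siNC, of log2(FPKM + 1); bars are SE and colours mark the protein pattern. The points are spread around 0 at every level, Zfp993 at -0.48 and Zfp692 at 0.42 lie farthest out, and the highest levels belong to genes without the KRAB pattern.

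Among the genes higher in siCXCR4, the lowest p belonged to Zfp692 (chr11:58307069-58314627). It was at 1.36 and 1.16 FPKM in siNC and at 1.96, 2.21 and 1.92 in siCXCR4. All 3 siCXCR4 libraries lay above both siNC libraries, with 45 to 84 reads per library. The log2 fold change was 0.42 (SE 0.0835, 95% interval 0.22 to 0.62), with a limma adjusted p of 0.438. By edgeR, which adds no pseudocount of 1 FPKM, it was 0.66 with an adjusted p of 0.254. Over the alternative analyses the adjusted p of Zfp692 ran from 0.0771 to 0.845.

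Zfp51 (chr17:21450374-21465587), with 19 fingers, was at 2.03 and 1.85 FPKM in siNC and at 2.69, 2.63 and 2.82 in siCXCR4. The groups did not overlap, and the log2 fold change was 0.34 (SE 0.0687, interval 0.17 to 0.50; limma adjusted p 0.438, edgeR 0.29, and 0.0771 to 0.871 over the alternatives). Zfp385a (chr15:103313895-103340093), the most abundant Zfp gene, was at 23.8 and 23.5 against 27.97, 25.3 and 28.7 FPKM. Here too every siCXCR4 library was above both siNC libraries, and the log2 fold change was 0.20 (SE 0.0641, interval 0.05 to 0.35; limma adjusted p 0.501, edgeR 0.356, and 0.13 to 0.924 over the alternatives, apart from the one that follows). Zfp385a was the 1 Zfp gene that edgeR called without siCXCR4 replicate 2 (log2 fold change 0.24, edgeR adjusted p 0.0476), in a fit that called 312 of 12750 genes (2.45%).

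Zfp703, a corepressor of the NET family, was at 5.83 and 6.37 FPKM in siNC and at 6.97, 6.92 and 8.23 in siCXCR4, a log2 fold change of 0.24. Zfp91, a ubiquitin ligase that acts on the kinase NIK in noncanonical NF-kB signalling, was at 13.9 and 14.7 against 15.9, 15.3 and 16.2, or 0.13. Zfp558 was at 7.01 and 6.73 against 7.53, 7.84 and 8.11, or 0.16. In all 3 the siCXCR4 libraries lay above the siNC libraries, and the limma adjusted p ran from 0.504 to 0.526. The other 6 of the 12 genes with the lowest p on this side, Zfp219, Zfp959, Zfp119b, Zfp422, Zfp654 and Zfp768, had log2 fold changes of 0.14 to 0.24 and non-overlapping groups. Zfp959 (1.87 and 1.95 against 2.25, 2.70 and 2.37 FPKM) and Zfp119b (1.26 and 1.01 against 1.40, 1.6 and 1.52 FPKM) share 17.4% and 23.0% of their transcript 50-mers with other genes, and their estimates depend on where such reads were counted.

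On the other side stood Zfp993 (chr4:146610961-146658160), the gene with the largest difference of all 189 on the log2(FPKM + 1) scale. It was at 5.40 and 5.49 FPKM in siNC and at 3.67, 3.12 and 4.18 in siCXCR4. The groups did not overlap, the log2 fold change was -0.48 (SE 0.0995, interval -0.71 to -0.24), and the adjusted p was 0.438 by limma and 0.194 by edgeR, within a range of 0.0962 to 0.863 over the alternatives. Zfp993 held 77 to 152 reads per library. Its finger repeat shown above is identical to that of Zfp991. Of its transcript 50-mers, 86.8% also occur in another gene and 81.9% in Zfp991.

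Its neighbours had log2 fold changes near 0. Zfp991 was at 10.2 and 10.5 FPKM in siNC and at 11.1, 10.7 and 10.3 in siCXCR4, with a log2 fold change of 0.05, and 82.2% of its 50-mers are shared. Zfp992 was at 4.83 and 5.06 against 4.44, 5.08 and 4.85 (-0.04, 43.0% shared), and Zfp984 at 8.75 and 9.37 against 9.49, 9.07 and 9.81 (0.06, 54.5% shared). The groups overlapped in all 3 of these genes. Where reads that match several genes were counted was not stated with the deposited data that were read; the levels of these 4 genes are uncertain and the part of such reads in the Zfp993 value was not tested.

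Zfp800 was at 19.7 and 19.8 FPKM in siNC and at 17.3, 18.3 and 17.95 in siCXCR4, a log2 fold change of -0.14 (SE 0.0492; limma adjusted p 0.507). Zfp280c was at 1.78 and 1.97 against 1.59, 1.48 and 1.57, or -0.18. These 2 and Zfp993 are the 3 lower genes with an unadjusted limma p below 0.05. Zfp445, which keeps imprinting marks in the early embryo, was at 9.25 and 9.57 against 7.93, 8.97 and 8.46, or -0.14 (limma adjusted p 0.549). Zfp609, a partner of the cohesin loader and of Integrator, was at 5.22 and 5.0 against 3.90, 4.62 and 4.70, or -0.18 (limma adjusted p 0.551). In all 4 of these genes the groups did not overlap. The other 7 of the 12 lowest-p genes on this side were Zfp182, Zfp212, Zfp369, Zfp949, Zfp597, Zfp871 and Zfp446. They had log2 fold changes of -0.23 to -0.14, and the groups of Zfp949 and Zfp871 overlapped. Zfp182 met the threshold through its siNC libraries, so its direction is tied to that choice. Of the 24 genes, Zfp219, Zfp369, Zfp445, Zfp597, Zfp800 and Zfp949 overlap another gene with reads. With the strand setting not given in the sources used here, reads of such partners may be mixed. Zfp597 lies over Naa60, which holds more reads (a mean of 676 against 165).

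**Figure D2:**
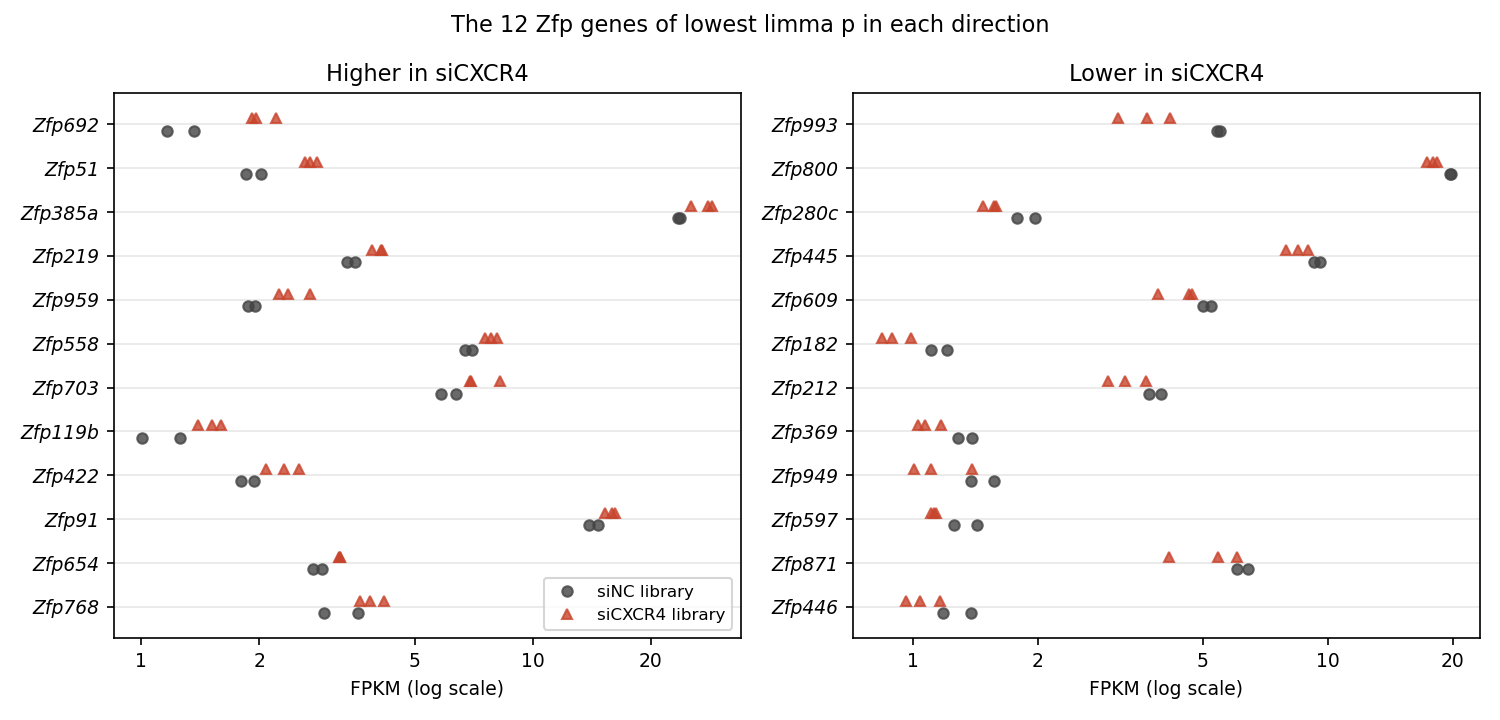
FPKM on a log axis in each of the 5 libraries for the 12 Zfp genes of lowest p on each side, 1 point per library, with siNC and siCXCR4 in different colours. All 12 genes on the higher side have separated groups, whereas on the lower side the groups of Zfp949 and Zfp871 overlap.

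Sorted by the patterns found in their translated coding sequences, the Zfp genes fell into 4 classes. The KRAB pattern is strict, and with 1 mismatch allowed it was found in 86 genes. A gene of another class may therefore still hold a KRAB domain. The KRAB pattern with fingers was found in 73 genes, the SCAN pattern with fingers in 9, fingers alone in 103 and no finger pattern in 4. KRAB genes had a median of 2.14 FPKM and 11 fingers (range 2 to 30), and 63 of them (86.3%) lay in clusters. Genes with fingers only had a median of 2.72 FPKM and 8 fingers (1 to 36), and 36 (35.0%) lay in clusters. Of all 391 Zfp genes, 73 of 191 with KRAB (38.2%) reached 1 FPKM, against 103 of 175 with fingers only (58.9%) and 9 of 11 with SCAN. The largest finger arrays belonged to Zfp142 with 36, and to Zfp729b and Zfp236 with 30 each, genes picked here for their arrays.

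Neither large class stood away from 0. The median log2 fold change was -0.0079 for the KRAB genes and 0.0080 for the genes with fingers only. By an unadjusted limma p below 0.05, 3 KRAB genes were higher (4.11%) and 1 lower (1.37%), and 6 (5.83%) and 2 (1.94%) of the genes with fingers only, against 5.8% and 3.54% of all genes tested. All siCXCR4 values lay above all siNC values in 7 KRAB genes (9.59%) and below in 9 (12.3%), and in 20 (19.4%) and 9 (8.74%) of the genes with fingers only, against 17.9% and 9.92% of all genes. A gene with both a KRAB and a SCAN pattern would count under KRAB. The most abundant KRAB genes were Zfp991, Zfp984 and Zfp869, the last at 9.32 and 9.73 FPKM in siNC and at 8.86, 8.31 and 10.1 in siCXCR4. Of the 9 SCAN genes, 0 had an unadjusted p below 0.05 with limma, 2 with edgeR, both lower, and 1 with DESeq2. Of all genes tested, 9.34%, 9.73% and 5.52% passed in this order. Groups did not overlap in 2 SCAN genes on the higher side and 2 on the lower (22.2% each, against 17.9% and 9.92% of all genes). In this class Zfp263 was at 17.6 and 19.1 against 18.5, 17.9 and 18.4, and Zfp110 at 7.05 and 6.80 against 7.73, 7.57 and 6.89. Of the genes with fingers only, Zfp710 was at 21.3 and 21.9 against 21.9, 21.7 and 23.2, and Zfp513 at 22.1 and 20.8 against 20.6, 21.8 and 20.7. The groups touched or overlapped in Zfp710, Zfp513, Zfp263 and Zfp110. The 4 genes without the finger pattern were Zfp703, Zfp330, Zfp839 and Zfp503, and of these Zfp330 was at 4.87 and 5.30 against 5.38, 4.70 and 5.30, while Zfp839 was at 4.53 in both siNC libraries against 4.49, 4.09 and 3.93 FPKM (-0.10).

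The list of Zfp genes for RNA, translation and ubiquitin was made with earlier results of these data known. All its genes were expressed, 11 of 11, with a median log2 fold change of 0.0038. Of these, 2 were higher by the unadjusted limma p (18.2%, against 5.8% of all genes), Zfp385a and Zfp91 described above, and 0 lower. Zfp91 did not reach an unadjusted p of 0.05 with edgeR or DESeq2. Zfp598, which marks collided ribosomes with ubiquitin, was at 10.6 and 9.25 FPKM in siNC and at 9.89, 10.03 and 9.28 in siCXCR4. Zfp622, which takes part in the maturation of the large ribosomal subunit, was at 6.06 and 6.39 against 6.49, 5.78 and 6.47, and Zfp706 at 11.3 and 10.5 against 11.7, 10.2 and 10.1. Zfp207 was at 19.7 and 20.2 against 20.5, 20.6 and 19.1. In these 4 genes the groups overlapped. Zfp106, an RNA-binding protein, was at 9.69 and 8.95 against 9.28, 10.1 and 9.90, the splicing factor Zfp830 at 9.71 and 7.87 against 8.51, 8.66 and 9.02, and Zfp346, which binds double-stranded RNA, at 3.54 and 4.03 against 4.27, 3.38 and 4.24. Zfp326, of the DBIRD complex, was at 1.29 and 1.31 against 1.29, 1.23 and 1.37. Zfp638 silences unintegrated retroviral DNA together with the HUSH complex. It was the 1 gene of this list below siNC in all 3 siCXCR4 libraries, at 2.86 and 3.06 against 2.65, 2.75 and 2.84 (-0.08). That is 9.09% of the list, against 9.92% of all genes tested. On the higher side the groups did not overlap in 2 genes (18.2%, against 17.9%).

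Of 10 Zfp genes listed for chromatin, imprinting and retroelement silencing, 9 were measured. Zfp57, which guards imprints in the germ line and embryo, was listed at 0 in every library. The median log2 fold change was 0.0083, and Zfp445 alone had groups that did not overlap. That is 11.1% lower, against 9.92% of all genes tested, and 0% higher, against 17.9%. An unadjusted p below 0.05 was reached by 0 of the 9 with limma and by 1 with edgeR and with DESeq2, in both Zfp445. Of all genes tested, 9.34% passed with limma, 9.73% with edgeR and 5.52% with DESeq2. Zfp809, which silences proviral DNA through the primer binding site, was at 3.19 and 3.43 FPKM in siNC and at 3.30, 3.02 and 3.03 in siCXCR4. Zfp281 was at 10.6 and 13.1 against 12.9, 11.6 and 12.4, and its relative Zfp148 at 4.81 and 4.94 against 4.81, 4.88 and 5.04. The siNC libraries differed more from each other in Zfp281 than the siCXCR4 libraries did. Zfp217, a partner of the LSD1 and CoREST corepressors, was at 7.05 and 6.92 against 6.74, 6.96 and 7.0. Zfp592 was at 7.36 and 7.11 against 7.19, 7.51 and 7.57 and Zfp687 at 2.43 and 2.74 against 2.55, 2.63 and 2.74, both partners of Zmynd8. Zfp644, which recruits the histone methyltransferases G9a and GLP, was at 1.73 and 1.64 against 1.72, 1.70 and 1.67, and Zfp410, an activator of Chd4, at 1.62 and 1.58 against 1.74, 1.51 and 1.67. Each of these 8 genes had overlapping groups.

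The partners through which KRAB proteins repress were present. Of 24 listed genes 22 were measured, all but Suv39h2 and Trim24, with a median log2 fold change of 0.015 and 0 adjusted p under 0.05. Trim28, the corepressor that binds KRAB, was at 28.5 and 26.4 FPKM in siNC and at 32.8, 28.9 and 31.5 in siCXCR4, with non-overlapping groups and a log2 fold change of 0.17 (SE 0.0684; limma adjusted p 0.526). Cbx1, a heterochromatin protein, was at 8.46 and 9.08 against 8.33, 7.49 and 7.03, or -0.18 (SE 0.0768; limma adjusted p 0.534). Trim33, a relative of Trim28, was at 2.84 and 3.20 against 3.41, 3.38 and 3.46, or 0.14. These 3 have the lowest limma p of the list. With limma, Trim28 and Cbx1 were its genes below an unadjusted p of 0.05, or 9.09% against 9.34% of all genes tested, and with edgeR Fam208a, of the HUSH complex, was a further one (2.38 and 2.34 against 2.12, 2.09 and 2.10 FPKM).

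By position, 237 of the 391 Zfp genes lay in 33 clusters, each a run of at least 3 Zfp genes with gaps of at most 500 kb. These hold 104 of the 189 expressed genes (55.0%), so 43.9% of clustered and 55.2% of other Zfp genes were expressed. Chromosomes 7 and 17 carried 41 and 28 expressed Zfp genes, 36.5% of them together, against 12.6% of the protein-coding genes tested. The median log2 fold change was 0.0056 in clusters and 0.0038 outside them. By the unadjusted limma p, 3 genes were higher (2.88%) and 1 lower (0.962%) in clusters, and 7 (8.24%) and 2 (2.35%) outside, against 5.8% and 3.54% of all genes tested; the difference between the 2 sets was not tested. In 9 clusters at least 4 genes were expressed, and their medians ran from -0.11 to 0.11.

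The lowest median, -0.11, belonged to the cluster at chr17:32771236-33631779, with 7 of 13 genes expressed and 5 of them below 0; by edgeR it was -0.20. Zfp871 was at 6.04 and 6.43 FPKM in siNC and at 4.15, 6.05 and 5.45 in siCXCR4, Zfp811 at 4.34 and 3.15 against 2.95, 3.68 and 2.19, and Zfp955b at 1.36 and 2.38 against 1.57, 1.48 and 0.988. These are the 3 farthest from 0 there, their groups overlapped, and the siNC libraries of Zfp811 and Zfp955b differed from each other by more than the group means did. Zfp952 was at 3.39 and 3.27 against 3.44, 2.67 and 3.07. The highest median, 0.11, belonged to chr6:47819266-48623227, with 6 of 9 genes expressed and 5 above 0. Zfp467 was at 2.03 and 2.04 against 2.51, 2.07 and 2.86, with siCXCR4 replicate 2 close to siNC. Zfp746 was at 2.79 and 2.54 against 2.71, 3.14 and 2.97, Zfp777 at 2.15 and 2.26 against 2.64, 2.21 and 2.59, and Zfp212, the exception, at 3.70 and 3.95 against 3.64, 2.96 and 3.25 (-0.18). With limma and edgeR, 0 of the 13 genes in these 2 clusters had an unadjusted p below 0.05, and with DESeq2 1 had, Zfp871. Of all genes tested, 9.34% passed with limma, 9.73% with edgeR and 5.52% with DESeq2.

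The largest cluster by expressed genes, chr17:21008903-23599487, held 15 of 23, with a median of 0.0007 and log2 fold changes from -0.16 to 0.34. Its highest value is that of Zfp51, while the neighbours Zfp53 (3.34 and 3.92 against 3.82, 3.11 and 4.36 FPKM) and Zfp677 (2.64 and 2.83 against 2.75, 3.17 and 3.04 FPKM) had overlapping groups. Zfp160 was at 2.43 and 2.97 against 2.72, 2.55 and 2.55, and Zfp994 at 1.56 and 1.52 against 1.84, 1.68 and 1.69. The cluster of Zfp993, chr4:145510759-147848366, held 5 of 18 with a median of -0.01, and of its 5 genes Zfp933, not yet given, was at 1.74 and 1.73 against 1.57, 1.63 and 1.94. In chr13:67038596-67827002, 7 of 23 were expressed with a median of -0.04. There Zfp429 was at 4.47 and 4.91 against 4.5, 4.55 and 4.58, Zfp65 at 3.16 and 4.17 against 3.71, 3.11 and 3.55, Zfp455 at 2.74 and 3.20 against 3.11, 2.34 and 3.29, and the long-array genes Zfp729a at 1.39 and 1.64 against 1.33, 1.38 and 1.29 and Zfp729b at 1.43 and 1.57 against 1.59, 1.44 and 1.74. Zfp729a alone of these 5 was below siNC in all siCXCR4 libraries.

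The other 4 such clusters lie on chromosome 7. The densest, chr7:127233061-127885996, had 9 of 10 genes expressed and a median of 0.04. Zfp771 was at 6.81 and 6.11 FPKM against 6.51, 6.27 and 7.15, Zfp646 at 3.68 and 3.79 against 3.38, 3.83 and 4.01, Zfp768 at 3.58 and 2.94 against 4.17, 3.85 and 3.62, and Zfp688 at 2.54 and 2.26 against 2.32, 2.11 and 1.47. Only Zfp768 of these had separated groups. At chr7:29768552-30169750, with 8 of 15 expressed and a median of 0.01, Zfp146 was at 5.88 and 6.42 against 5.98, 5.87 and 5.92, Zfp84 at 3.66 and 3.84 against 4.41, 4.36 and 4.00, and Zfp260 at 3.12 and 3.21 against 3.07, 3.03 and 3.53. Zfp84 had separated groups, with a log2 fold change of 0.15 (limma adjusted p 0.544). Zfp27, given above, had them too, but it met the threshold through its siCXCR4 libraries, so its direction is tied to that choice. At chr7:42473386-43618285 (4 of 9, median -0.10) Zfp719 was at 3.20 and 3.61 against 3.71, 3.53 and 3.04, Zfp715 at 3.10 and 3.48 against 2.90, 3.19 and 2.92, and Zfp658 at 3.0 and 3.05 against 2.59, 2.97 and 2.51. Zfp658 was lower in all 3 siCXCR4 libraries, with replicate 2 close to siNC. At chr7:24081924-25227507 (4 of 14, median -0.01) Zfp180 was at 4.15 and 4.5 against 5.35, 4.36 and 5.06, Zfp574 at 3.19 and 3.10 against 3.27, 2.62 and 3.50, Zfp526 at 1.98 and 1.70 against 1.51, 2.0 and 1.99 and Zfp61 at 1.18 and 1.17 against 1.06, 1.07 and 1.13. Zfp61 alone of these 4 had separated groups.

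**Figure D3:**
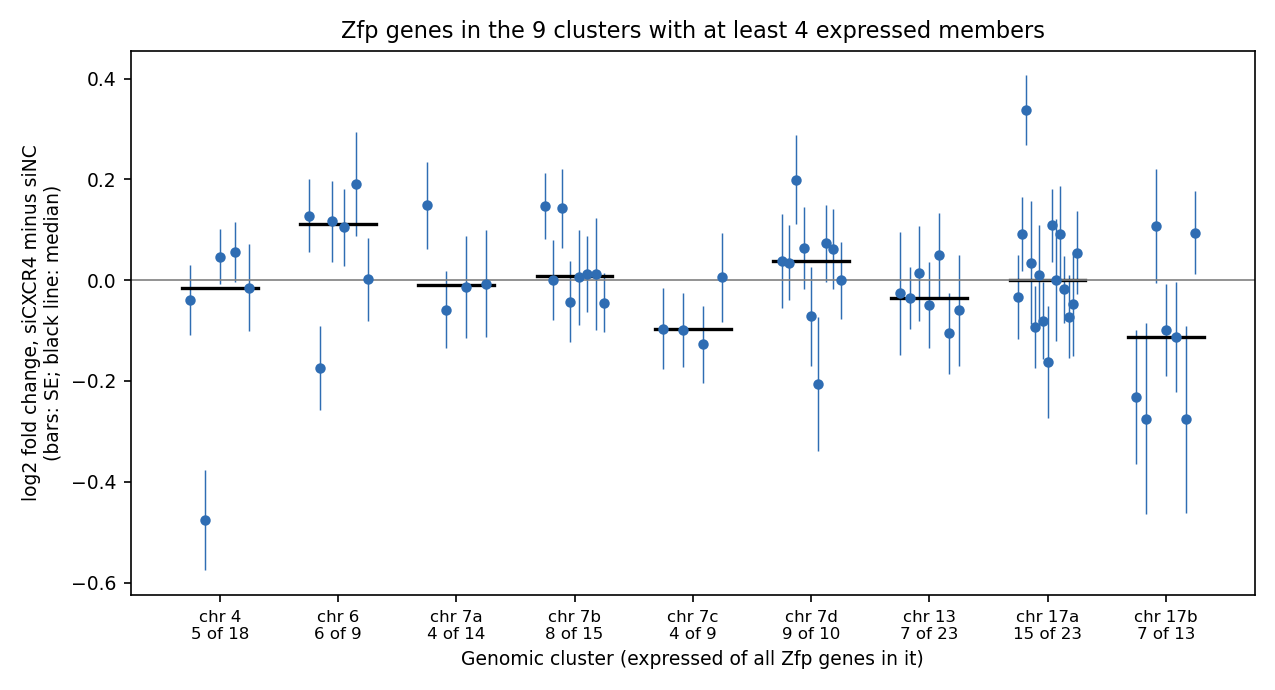
Log2 fold change of siCXCR4 minus siNC, with SE bars, for each expressed Zfp gene in the 9 clusters with at least 4 expressed members, with the cluster's median as a black line. The medians run from -0.11 to 0.11, and genes of 1 cluster lie on both sides of 0.

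Shared sequence was common in the family. A count was made of the 50-base stretches of each gene's annotated transcripts that also occur in transcripts of another gene. In 74 of the 189 genes it was 0%, in 29 it was at least 10% and in 6, Zfp993, Zfp991, Zfp984, Zfp59, Zfp955a and Zfp971, at least 50%. Of the 29 genes 24 hold the KRAB pattern. Their median log2 fold change was 0.0052, against 0.0046 in the 160 genes below 10%. An unadjusted limma p below 0.05 was found in 10.3% of the 29 and 6.25% of the 160, against 9.34% of all genes tested. A log2 fold change beyond 0.2 in either direction was found in 4 of the 29 and 8 of the 160, against 940 of all 9943 genes tested. Whether these shares differ was not tested. Position added a second overlap: 69 of the 189 genes overlap another gene with reads, and in 13 that gene has more reads than the Zfp gene. In Zfp276, chosen here for that reason, Fanca holds a mean of 1251 reads against 539. Of the genes given above, Zfp512b, Zfp513, Zfp597, Zfp687 and Zfp839 are also among these 13, and their values may hold reads of the other gene.

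**Figure D4:**
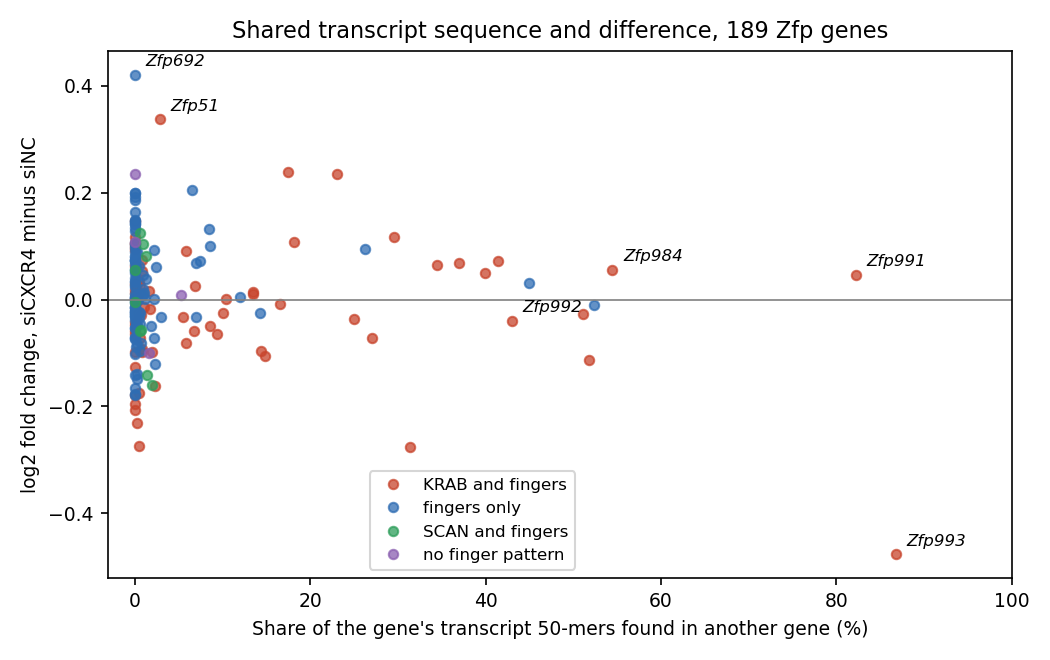
Share of each Zfp gene's transcript 50-mers that also occur in another gene, in percent, against the log2 fold change of siCXCR4 minus siNC, 1 point per gene. Most genes lie near 0% and near 0, the genes at 50% or more include Zfp991 and Zfp984 close to 0, and Zfp993 is at 86.8% and -0.48.

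Promoters were compared because they are what genes of one family might share beyond their coding repeats. RefSeq promoters (GRCm38.p6, from 250 bases before to 50 after the start) were matched for 159 of the 189 genes. Their median was 16 CpG per 300 bases and 57% GC, against 22 and 61% in 7173 expressed and 14 and 57% in all 16506 protein-coding genes with a promoter. On either strand, the letters CCAAT occurred in 49.7% of Zfp promoters (38.6% of expressed, 38.8% of all), the GC box GGGGCGGGG in 13.2% (22.6%, 16.0%), the ETS letters CCGGAAGT in 10.7% (10.3%, 5.54%), TATAAA in 4.4% (6.41%, 12.9%), the NRF1 letters GCGCATGCG in 5.03% (4.38%, 2.50%) and the YY1 letters AAGATGGCG in 3.14% (3.97%, 2.04%). No motif searched contains the letters of another. The core ACTACAATT of the motif of ZNF143, a zinc finger activator of promoters, occurred in 4 Zfp promoters, 2.52%, against 0.836% of expressed and 0.563% of all promoters.

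These 4 promoters are shown because 1 of them belongs to Zfp692. They are stretches of 60 bases, with the core, or its reverse complement AATTGTAGT, in capitals: chr11:58306996-58307055 for Zfp692, chr4:147848419-147848478 (minus strand) for Zfp933, chr8:111643383-111643442 for Zfp1 and chr7:24081837-24081896 for Zfp180.
Zfp692: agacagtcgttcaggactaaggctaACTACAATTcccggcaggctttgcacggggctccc
Zfp933: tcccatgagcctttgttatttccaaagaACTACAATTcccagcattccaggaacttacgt
Zfp1: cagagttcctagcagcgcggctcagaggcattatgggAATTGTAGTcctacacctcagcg
Zfp180: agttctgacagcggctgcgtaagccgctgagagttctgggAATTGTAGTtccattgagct
A match of letters is no bound site. The 4 genes had log2 fold changes of 0.42, -0.01, -0.03 and 0.15 in this order, and the 95% intervals of Zfp933 (-0.22 to 0.19), Zfp1 (-0.23 to 0.18) and Zfp180 (-0.06 to 0.36) hold 0. Zfp1, named for this match, was at 3.24 and 2.96 FPKM in siNC and at 3.31, 2.68 and 3.10 in siCXCR4, and Zfp143, the mouse gene of the factor, at 5.24 and 6.39 against 6.05, 5.08 and 5.95, with overlapping groups in both.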

How the data were processed

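RNA sequencing of 6 samples was deposited as 1 table of 54532 genes each. In 5 tables the deposited values are normalized and were read as FPKM from the values, since the headers name no unit and RPKM would look the same; in the siNC replicate 3 table the deposited values are whole read counts. The submitters' processing notes name the build mm9, but 183 of the 189 Zfp genes have the same position in GENCODE M21, so coordinates are GRCm38. Aligner, counter, strand setting and handling of multiply matching reads: not given in the sources used here.

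Whole reads were worked back from FPKM (100% of values whole within 0.05). The test was limma 3.58.1 (trend, robust) in R 4.3.3 on log2(FPKM + 1) of the 9943 genes whose mean reached 1 FPKM. It was two-sided, and p-values were adjusted by Benjamini-Hochberg over all 9943 genes, with a threshold of 0.05. Log2 fold changes on that scale understate changes of low genes. As alternatives, edgeR 4.0.16 (quasi-likelihood, TMM scaling) and DESeq2 1.42.0 were run on those reads, and edgeR with each library left out was added after seeing the data. Other alternatives were pseudocounts of 0.1 and 0.01, no filter, a minimum mean of 5 FPKM, quantile normalization, median scaling, limma without trend and robust estimate, each library left out, a replicate block and the copy counted as a library. The scripts for the tests were tested on simulated data. Without molecular identifiers reads are not separate molecules, so read numbers bear on counting error only.

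The KRAB, SCAN and finger patterns were searched in translated GENCODE M21 coding sequences with Biopython 1.88, in place of the RefSeq proteins planned. The promoter motifs NRF1, YY1 and ZNF143 were shortened to 9 letters after longer forms had been searched. With 1 mismatch allowed the KRAB pattern was found in 86 genes. Genes were named by rule: the 12 of lowest p on each side, the 10 highest, the 3 on each side of the threshold, the 3 highest of each class, the 3 highest and 2 of lowest p of each cluster with at least 4 expressed genes, the role lists, and the 3 of lowest p of each other list. The members and lists were chosen with earlier results of these data known.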

Additional observations from a re-analysis of the deposited data

How the results depend on the processing

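For the 24 Zfp genes of lowest p, 367 of 367 alternative values kept their direction and their side of the threshold. The genes were picked by their p in these same libraries, and most have non-overlapping groups. Their direction was thus largely set by that choice. The 367 values leave out edgeR with 1 library removed, where Zfp385a passed without siCXCR4 replicate 2 (edgeR adjusted p 0.0476). Over all genes, limma called 0 genes, edgeR 17, DESeq2 33, limma with siNC replicate 3 as a library 6, and limma without 1 library 0 to 1. With edgeR, leaving out 1 library gave 0 to 312 calls, 312 without siCXCR4 replicate 2, and 0 to 1 among the Zfp genes. The 10 higher and 3 lower Zfp genes by unadjusted p became 4 and 1 at a mean of at least 5 FPKM (fewer genes), 11 and 6 without trend and robust estimate, 6 and 9 by edgeR, 4 and 5 by DESeq2, 16 and 10 with siNC replicate 3 as a library, and 3 to 12 and 1 to 5 without 1 library. The median log2 fold change of the Zfp genes, 0.0052, became 0.033 at a mean of at least 5 FPKM, -0.0109 by edgeR, -0.0078 by DESeq2 and -0.0120 to 0.0099 without 1 library. Non-overlapping groups, 30 above and 21 below, became 40 to 56 and 31 to 50 without 1 library, as fewer libraries must separate. Cxcr4 was at -0.34 by DESeq2, with an adjusted p of 0.0465. With the replicate block the Zfp median was -0.0120, with 5 higher and 2 lower genes. Numbers 1 and 2 are shared by the groups, and the labels do not say that they pair samples. In deviations from the group mean, same-numbered libraries correlated at -0.04 and -0.11. The deviations of the 2 siNC libraries mirror each other by construction, so these values do not settle whether samples pair. Apart from the smaller number of libraries that must separate, the cause of these changes was not tested. Reads of 31 to 3483 per gene and the small number of libraries limit what differences could be detected.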

Other observations

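Zinc finger families with other names, listed with these genes, also gave 0 adjusted p under 0.05 by limma. The 29 Zbtb genes, which pair fingers with a BTB domain, had a median log2 fold change of 0.03. By an unadjusted limma p below 0.05, 3 were higher (10.3%, against 5.8% of all genes) and 0 lower (against 3.54%). The 3 were Zbtb2 (0.25), Zbtb42 (0.23) and Zbtb21 (0.14). By the same threshold edgeR also had 1 lower, Zbtb8os, and DESeq2 had 1 Zbtb gene in all, Zbtb2, where 5.52% of all genes passed. The 15 Zc3h genes, whose fingers bind RNA, had a median of 0.04. By the unadjusted limma p 2 were higher (13.3%, against 5.8% of all genes) and 0 lower (against 3.54%). Zc3h12a, the ribonuclease Regnase-1 that degrades inflammatory mRNAs, was at 56.9 and 55.2 FPKM in siNC and at 63.5, 63.8 and 67.5 in siCXCR4 (0.21; limma adjusted p 0.457). Its relative Zc3h12d was at 11.2 and 11.7 against 13.7, 13.3 and 15.5 (0.28; limma adjusted p 0.486). In both the groups did not overlap. The 7 Zkscan genes had a median of 0.03, with 0 higher by the unadjusted limma p and 1 lower (14.3%, against 3.54% of all genes). This was Zkscan3, at 7.26 and 7.21 against 6.18, 6.58 and 6.63 (-0.14). Whether the shares of these lists differ from those of all genes was not tested. The 5 Zscan and 16 Zdhhc genes had medians of 0.01 and 0.02 and no member below an unadjusted p of 0.05 with limma, edgeR or DESeq2. The 27 genes of the mitochondrial genome had a median of -0.07, and Malat1, a nuclear RNA, was at 80.7 and 86.0 FPKM in siNC against 58.8, 58.5 and 65.6 in siCXCR4.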
